A study of Homo sapiens with 54 samples.

Results

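LN319 is a glioma cell line, and the comparison described here set its *TRA2B* knockout (KO) directly against its *TRA2A* KO. The members were the 3 luciferase (Luc) *TRA2B* KO libraries and the 3 Luc *TRA2A* KO libraries, 6 of the 54 RNA-seq libraries of the series, chosen by their labels. Genes with at least 1 TPM (a transcript level corrected for length and library total) in at least 4 of the 15 LN319 libraries were tested, which left 19303 gene names. Beside these 6 libraries, the LN319 table held 3 Luc Control KO libraries and, with *TRA2B* overexpressed from a cDNA (TRA2B-OE), 3 Control KO and 3 *TRA2A* KO libraries. All of these cells carried an overexpression construct, luciferase or *TRA2B*, and were collected 7 days after transduction with a lentivirus that encoded Cas9 and a guide to a control locus, *TRA2A* or *TRA2B*. They were transduced populations rather than clones as far as the methods state, and nothing says whether replicates came from separate transductions, so p-values measure the spread between these libraries, which may be technical.

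TRA2A and TRA2B are paralogous SR-like proteins that bind purine-rich exonic sequences and promote inclusion of the exons that hold them. Each can also act on the pre-mRNA of its own gene and of its paralog, through exons that send the transcript to decay. Because both bind much the same motif, loss of one can be buffered by the other, and the question addressed here is which RNAs respond to the loss of one paralog and not of the other, and which respond to both.

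The study's guides all lie in coding exons of the canonical transcripts, which shows where Cas9 was directed and where the remaining RNA could carry a lesion. Which of the 3 guides per gene went into the RNA-seq libraries was not stated in the sources used here. Each is printed 5′ to 3′ with the protospacer adjacent motif of the genome in capitals, at hg38 positions of the protospacer found by search. The *TRA2A* guides target exon 4 on the minus strand, at chr7:23513023-23513042 (sg4), chr7:23512982-23513001 (sg5) and chr7:23512951-23512970 (sg6). The *TRA2B* guides target exon 3 at chr3:185925477-185925496 on the plus strand (sg2), exon 2 at chr3:185926693-185926712 on the minus strand (sg4) and exon 4 at chr3:185923950-185923969 on the plus strand (sg5).
TRA2A sg4: tcagtttgtacacaacagagAGG
TRA2A sg5: tctcgatatggaccattgagTGG
TRA2A sg6: tggtttatgatcagcgaactGGG
TRA2B sg2: tgacgcctgcgagtagacatGGG
TRA2B sg4: gtggaagtgctcacggatcgGGG
TRA2B sg5: aatactccaagacaacagttAGG

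Across the LN319 libraries TPM summed to between 959783 and 964610, and scaling factors ran from 0.905 to 1.07. Because TPM holds no depth, the spread between replicates stands for the precision of each value. Mitochondrially encoded RNA took 12.1 to 12.8% of TPM in Control KO, 13.2 to 15% in *TRA2A* KO and 18.3 to 20.6% in *TRA2B* KO, and its part in the results below was not tested. Correlation of log2 values was 0.953 to 0.96 among *TRA2A* KO libraries, 0.957 to 0.963 among *TRA2B* KO libraries and 0.924 to 0.945 between them, over genes that are not independent. Of the glioma markers, *SOX2* (320 to 490 TPM), *PDGFRA* (126 to 221 TPM) and *PDPN* (452 to 788 TPM) were high in all 9 Luc libraries. *GFAP* (0.618 to 3.77 TPM), *S100B* (0.287 to 1.07 TPM) and *AQP4* (1.14 to 3.27 TPM) were low, and *OLIG1*, *OLIG2*, *FABP7*, *SLC1A3*, *ALDH1L1* and *NCAM1* stayed under 1 TPM. Some epithelial markers were high as well, with *CDH1* at 116 to 131 TPM, *KRT8* at 89.3 to 128 TPM and *KRT18* at 69.5 to 103 TPM. Others were low, such as *EPCAM* (0.188 to 1.31 TPM) and *GRHL2* (under 1 TPM).

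The targeted genes matched the labels. *TRA2A* was at 101.5, 106.5 and 112.7 TPM in Control KO, at 33.9, 34.3 and 38.3 TPM in *TRA2A* KO and at 89.5, 84.8 and 97.1 TPM in *TRA2B* KO. Its *TRA2A* KO libraries lay below all others, at 33.2% of the control mean, and its *TRA2B* KO libraries lay below those of Control KO, at 84.6% of its mean, which passed the test (log2 fold change −0.35, adjusted p = 0.00396 by limma). *TRA2B* was at 90.2, 83.5 and 89.1 TPM in Control KO, at 97.5, 98.5 and 115.8 TPM in *TRA2A* KO and at 30.7, 32.4 and 29.3 TPM in *TRA2B* KO. Here the *TRA2B* KO libraries were lowest, at 35.1% of the control mean, and the *TRA2A* KO libraries sat above every control library, at 119% of its mean, which did not pass the test (log2 fold change 0.28, adjusted p = 0.063 by limma). On the log2(TPM + 0.1) scale used for every fold change here, the direct difference (*TRA2B* KO minus *TRA2A* KO) was 1.20 ± 0.08 (SE) for *TRA2A* (adjusted p = 9.71e-07) and −1.89 ± 0.09 for *TRA2B* (adjusted p = 1.97e-07). The exact permutation test of either gene gave p = 0.1, the smallest that 3 against 3 libraries allow. The summed level of both genes was 195 ± 6.37 TPM (SD, n = 3) in Control KO, 139 ± 12.7 TPM in *TRA2A* KO and 121 ± 4.63 TPM in *TRA2B* KO.

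**Figure D1:**
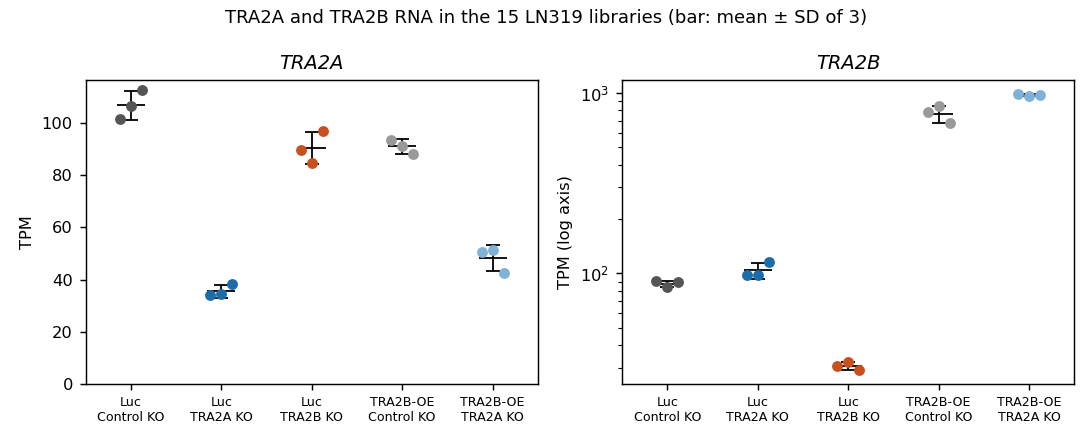
*TRA2A* (left, linear axis) and *TRA2B* (right, log axis) in TPM for each of the 15 LN319 libraries, as points, with the mean and SD of 3 libraries per group. Each KO lowered its own gene, to 33.2% and 35.1% of the Luc Control KO mean, and the *TRA2B* cDNA raised *TRA2B* far above the other groups.

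The direct comparison called 1224 differentially expressed genes (DEGs), 6.34% of those tested, taking as DEGs those with adjusted p under 0.05 and a log2 fold change beyond 1 in size. Of these, 786 were higher in *TRA2B* KO (4.07%) and 438 lower (2.27%), a share of 64.2% higher that depended on the scaling, since it was 79.6% with TPM as deposited and 50.6% after quantile normalization. At an adjusted p under 0.05 alone, 4062 genes were higher (21%) and 5040 lower (26.1%). The 3 and 3 libraries did not overlap in 59.7% of tested genes. The cut at a log2 fold change of 1 fell in a dense range, with 251 DEGs between 1 and 1.1 and 368 genes of adjusted p under 0.05 between 0.9 and 1. Of the DEGs, 667 matched a protein-coding gene of Gencode v44, 367 higher and 300 lower, and 366 names did not match that annotation.

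Each KO was placed against the same 3 Luc Control KO libraries to see on which side a DEG of the direct comparison had moved. *TRA2A* KO gave 362 DEGs against Control KO (1.88%), 173 higher (0.896%) and 189 lower (0.979%), and *TRA2B* KO gave 757 (3.92%), 583 higher (3.02%) and 174 lower (0.901%). By adjusted p alone, 6.82% of genes were higher and 7.44% lower in *TRA2A* KO, and 18.6% higher and 24% lower in *TRA2B* KO. A DEG of the direct comparison was called opposite where both KO groups lay at least 0.5 from control on the log2 scale and on different sides, and otherwise *TRA2A*-side or *TRA2B*-side by the KO that lay farther from control. The classes rest on these estimates and required no test against control. *SALL3*, for example, was opposite but passed in neither KO against control (adjusted p = 0.052 in *TRA2A* KO and 0.107 in *TRA2B* KO by limma). On that basis 296 DEGs were *TRA2A*-side (1.53% of tested genes), 496 were *TRA2B*-side (2.57%) and 432 were opposite (2.24%), the last being 35.3% of the direct DEGs. The median absolute log2 difference from control was 1.03 in *TRA2A* KO and 0.31 in *TRA2B* KO for *TRA2A*-side genes, and 0.81 and 0.78 for opposite genes. These medians follow from the definition of the classes and are given as a description.

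**Figure D2:**
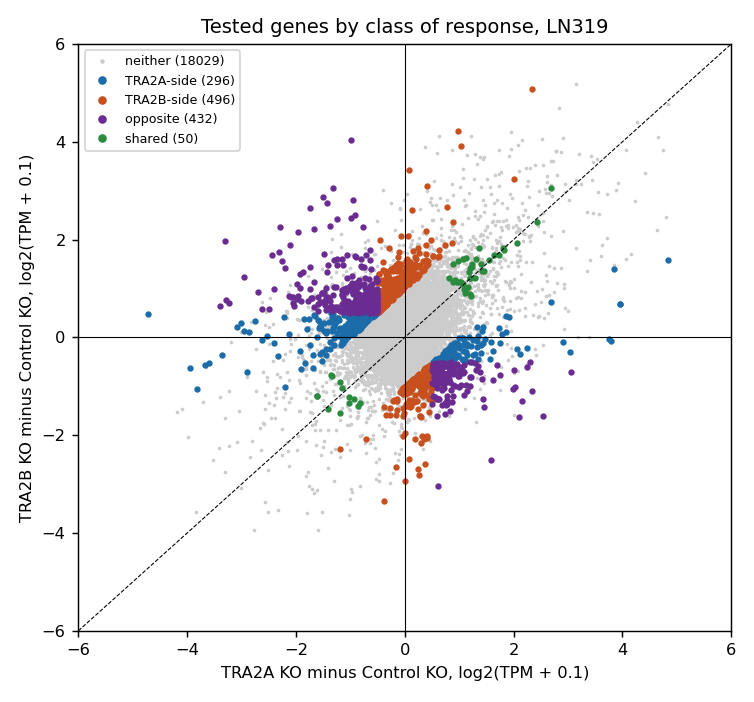
Each point is 1 of 19303 tested genes, with its log2 difference from Luc Control KO in *TRA2A* KO (x axis) and in *TRA2B* KO (y axis), coloured by class. The 432 opposite genes fill the upper left and lower right, and the 50 shared genes lie near the dashed line of equal response. Both axes subtract the same 3 control libraries, which spreads points along that line, and gray points far out on it are low or variable genes that met no class.

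The largest differences in favor of *TRA2B* KO included 5 interferon-stimulated genes, described further on, and 7 other genes. *MLC1*, a membrane protein of astrocyte end-feet, was at 7.88, 9.02 and 10.4 TPM in Control KO, 1.91, 1.96 and 2.27 TPM in *TRA2A* KO and 18.1, 14.7 and 19.8 TPM in *TRA2B* KO. No group overlapped another, and the direct difference was 2.89 ± 0.26 (adjusted p = 4.4e-06). *PTGS1*, the constitutive cyclooxygenase, was at 2.83, 2.52 and 3.36 TPM in Control KO, 1.23, 1.18 and 1.51 TPM in *TRA2A* KO and 10.1, 8.76 and 12.1 TPM in *TRA2B* KO. It had the same order without overlap and a direct difference of 2.74 ± 0.26 (adjusted p = 5.41e-06). *CA4*, a membrane-bound carbonic anhydrase, was at 3.15, 2.42 and 2.79 TPM in Control KO, 0.857, 0.697 and 0.386 TPM in *TRA2A* KO and 4.6, 6.13 and 9.59 TPM in *TRA2B* KO. Its direct difference was 3.06 ± 0.34 (adjusted p = 1.67e-05).

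Other genes of this direction differed in how far each KO contributed. *P2RY6*, a receptor for uridine diphosphate, was *TRA2A*-side, with 6.42, 5.64 and 6.63 TPM in Control KO, 1.02, 1.49 and 1.22 TPM in *TRA2A* KO and 8.92, 8.41 and 9.53 TPM in *TRA2B* KO. It fell by 2.21 in *TRA2A* KO (adjusted p = 0.00062), and the value in *TRA2B* KO was 0.41 (adjusted p = 0.30). *WDR86* was at 1.74, 1.66 and 1.8 TPM in Control KO, 0.629, 0.831 and 0.681 TPM in *TRA2A* KO and 5.58, 5.25 and 6.96 TPM in *TRA2B* KO, and *PCK1*, the cytosolic enzyme that commits carbon to gluconeogenesis, ranged from 0.645 to 0.833 TPM in *TRA2A* KO and from 3.74 to 7.23 TPM in *TRA2B* KO. Both were opposite, with direct differences of 2.75 ± 0.26 and 2.50 ± 0.28. *SALL3*, a zinc finger transcription factor, varied more within groups, at 1.98, 5.58 and 4.59 TPM in Control KO, 0.852, 0.788 and 1 TPM in *TRA2A* KO and 5.52, 13.7 and 13 TPM in *TRA2B* KO. Its *TRA2B* KO and Control KO libraries overlapped, while the *TRA2A* KO libraries lay below both (direct difference 3.23 ± 0.61, adjusted p = 0.000788).

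Genes lower in *TRA2B* KO than in *TRA2A* KO included those of secreted and matrix-associated proteins. *THBS1*, the matricellular protein thrombospondin 1, was at 107, 122.6 and 156 TPM in Control KO, 379, 340 and 495 TPM in *TRA2A* KO and 83.0, 117 and 82.7 TPM in *TRA2B* KO. The *TRA2A* KO libraries stood above all others and those of *TRA2B* KO overlapped with control (direct difference −2.25 ± 0.22, adjusted p = 6.74e-06). *TGFBI*, a matrix protein induced by TGF-beta, was at 5.09, 4.89 and 5.69 TPM in Control KO, 11.8, 11.4 and 10.8 TPM in *TRA2A* KO and 2.27, 3.25 and 2.33 TPM in *TRA2B* KO. It rose by 1.14 in *TRA2A* KO (adjusted p = 0.00035) and fell by 1.09 in *TRA2B* KO (adjusted p = 0.00011). *C5orf46* had the largest difference of this direction among protein-coding DEGs, −3.73 ± 0.27 (adjusted p = 1.3e-06), with 14.7 to 23 TPM in *TRA2A* KO, 3.7 to 4.68 TPM in Control KO and 1.09 to 2.2 TPM in *TRA2B* KO.

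A pair of genes showed how a single paralog could account for nearly the whole difference. *CPA4*, a carboxypeptidase, was at 15.1, 20.2 and 19.5 TPM in Control KO, 74, 68.6 and 80.4 TPM in *TRA2A* KO and 15.1, 21.2 and 14.3 TPM in *TRA2B* KO. It rose by 2.07 in *TRA2A* KO (adjusted p = 0.00024), and its *TRA2B* KO and Control KO libraries overlapped. *ALDH1A1*, a retinaldehyde dehydrogenase, was at 158, 149 and 129 TPM in Control KO, 198, 190 and 172 TPM in *TRA2A* KO and 37.1, 38.9 and 35.9 TPM in *TRA2B* KO. It fell by 2.06 in *TRA2B* KO (adjusted p = 1.7e-07) against a rise of 0.40 in *TRA2A* KO (adjusted p = 0.015), and the direct difference was −2.46 ± 0.10 (adjusted p = 1.86e-08). *KCNK1*, a two-pore potassium channel, was *TRA2A*-side like *CPA4* (direct difference −2.47 ± 0.46, adjusted p = 0.000682), and *WFDC11* was *TRA2B*-side like *ALDH1A1* (−2.26 ± 0.26, adjusted p = 1.96e-05).

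*KRT17*, a keratin of basal epithelia, was at 86.9, 81.1 and 78.3 TPM in Control KO, 175, 166 and 169 TPM in *TRA2A* KO and 37.9, 40 and 38.6 TPM in *TRA2B* KO, a near-even move to both sides of control. *TUBA4A*, an alpha-tubulin, was at 170, 144 and 195 TPM in Control KO, 361, 328 and 448 TPM in *TRA2A* KO and 81.2, 105 and 87.3 TPM in *TRA2B* KO. *CDH6*, a cadherin, was at 33, 38 and 27.7 TPM in Control KO, 55.5, 55.4 and 48.1 TPM in *TRA2A* KO and 11.4, 12.4 and 11.8 TPM in *TRA2B* KO. None of these genes had overlapping groups, and their direct differences were −2.27 ± 0.12, −2.20 ± 0.17 and −2.29 ± 0.15. *CRYAB*, a small heat shock protein, had a direct difference of −2.20 ± 0.29, and its *TRA2A* KO libraries (60.1 to 95.1 TPM) overlapped with Control KO (38.9 to 67.3 TPM). The readthrough *RPL36A-HNRNPH2* also met the naming rule (−3.67 ± 0.99, adjusted p = 0.00801), but it shares its sequence with its parent genes and is uncertain.

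Interferon-stimulated genes formed the most one-sided group. Of 40 measured genes, 31 were DEGs higher in *TRA2B* KO than in *TRA2A* KO, 0 were DEGs lower, and 35 were higher at an adjusted p under 0.05 by limma. At an unadjusted p under 0.05, 36 were higher and 0 lower, where 10272 of all 19303 tested genes passed in either direction. The list's median direct difference was 1.62, against 0.019 over all tested genes. In 35 of the 40 genes every *TRA2B* KO library lay above every *TRA2A* KO library, which held for 37% of all tested genes. Another 22.7% of all tested genes lay wholly below, and these shares are from TPM as deposited, without scaling. Of the 31 DEGs, 25 were opposite, 5 *TRA2A*-side and 1 *TRA2B*-side. Against Control KO, 14 of the list were DEGs lower in *TRA2A* KO (0.979% of all tested genes were) and 4 were DEGs higher in *TRA2B* KO (3.02% were).

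The libraries of a group differed in this list, and in the same order for most of its genes. Values by library were taken from TPM as deposited, without the scaling of the fit. Median log2 values relative to the control mean were 0.18, 0.22 and −0.42 in Control KO, −0.62, −0.997 and −1.36 in *TRA2A* KO and 1.17, 0.23 and 0.83 in *TRA2B* KO, for replicates 1, 2 and 3. Thus all *TRA2A* KO libraries lay below all control libraries, while *TRA2B* KO replicate 2 lay close to 2 of the control libraries. Control KO replicate 3 was the lowest of its group in 37 of the 40 genes, *TRA2A* KO replicate 3 in 33, and *TRA2B* KO replicate 1 was the highest of its group in 37. Leaving out any 1 of the 6 KO libraries left 28 to 33 DEGs.

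The interferon system detects foreign nucleic acids through cytosolic sensors and, by way of secreted interferons and their receptors, induces effectors that block viral replication. Among the effectors, *IFI44L* had the largest direct difference of all named genes, with 6.26, 5.74 and 1.28 TPM in Control KO, 1.82, 0.624 and 0.124 TPM in *TRA2A* KO and 24.4, 6.57 and 13.1 TPM in *TRA2B* KO (4.13 ± 0.76, adjusted p = 0.000659). Its *TRA2A* KO and control libraries overlapped and those of *TRA2B* KO lay above both. *XAF1*, a proapoptotic protein, was at 49.3, 63.3 and 27.2 TPM in Control KO, 24.4, 15.6 and 9.41 TPM in *TRA2A* KO and 248, 99.2 and 154 TPM in *TRA2B* KO. No group overlapped another, and *XAF1* both fell by 1.48 in *TRA2A* KO (adjusted p = 0.022) and rose by 1.72 in *TRA2B* KO (adjusted p = 0.0031). *OAS2*, which makes the oligoadenylate that activates RNase L, was at 11, 10.9 and 5.57 TPM in Control KO, 3.69, 2.5 and 1.67 TPM in *TRA2A* KO and 31.4, 11.3 and 18.6 TPM in *TRA2B* KO (2.72 ± 0.43, adjusted p = 0.000214). *IFI44* and *IFI27* had direct differences of 2.90 ± 0.48 and 2.66 ± 0.53.

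Signaling members are named here after their values were seen. *STAT2* was at 85.8, 85.7 and 66.1 TPM in Control KO, 60.6, 51 and 45.7 TPM in *TRA2A* KO and 153, 110 and 140 TPM in *TRA2B* KO, without overlap (1.21 ± 0.14, adjusted p = 2.73e-05). *IRF9* and *IRF7* had direct differences of 1.57 ± 0.24 and 1.54 ± 0.19, and the sensors *DDX58* and *IFIH1* of 1.91 ± 0.37 and 1.25 ± 0.31. *IRF1*, which responds to interferon gamma as well, did not pass the test (−0.12 ± 0.08, adjusted p = 0.264). Of the ligands, *IFNB1* reached at most 0.365 TPM and *IFNL1* at most 0.529 TPM in any LN319 library, whereas *IFNE* was listed at 9.20 to 18.2 TPM. The immune cell markers *PTPRC*, *CSF1R* and *AIF1* stayed under 1 TPM and *CD3E* and *MS4A1* were at 0 in all 9 Luc libraries, while the summed level of all 12 immune markers, 4 of them tested, was 28.7 to 31.3 TPM in Control KO, 44.7 to 49 TPM in *TRA2A* KO and 25.6 to 29.3 TPM in *TRA2B* KO, most of it *CD68*. The part of these markers in the result was not tested, and in bulk RNA a change in the number of cells of a kind cannot be told apart from a change in RNA per cell.

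**Figure D3:**
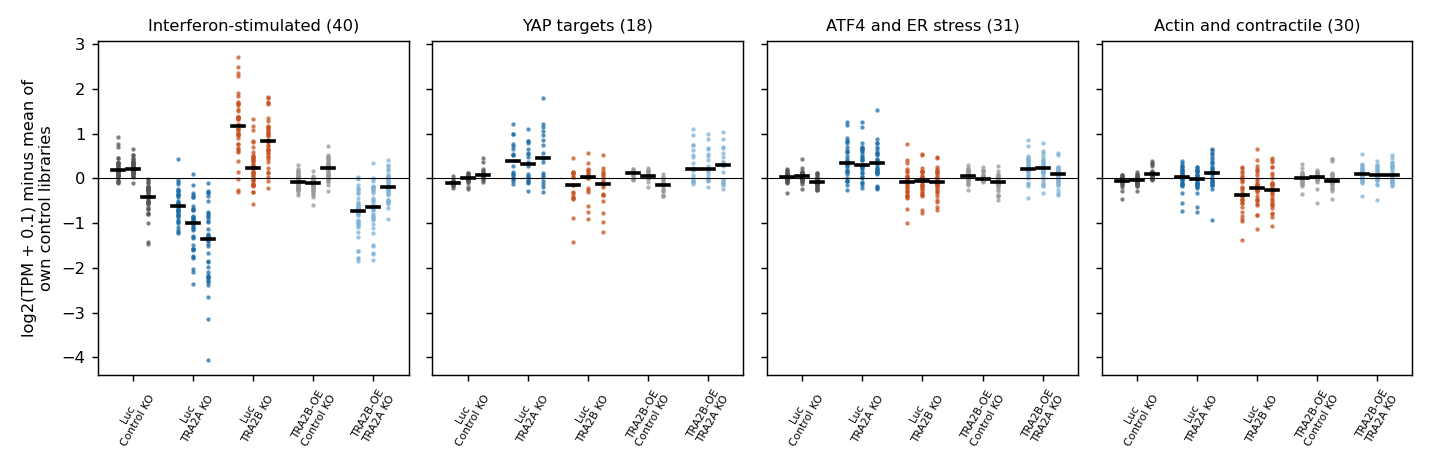
Log2(TPM + 0.1) of each gene, as a point, minus the mean of the 3 control libraries of the same overexpression background, for the 15 LN319 libraries in columns of 3 replicates and 4 gene lists, with black bars at the list median. The interferon-stimulated medians run from −1.36 to −0.62 in Luc *TRA2A* KO and from 0.23 to 1.17 in Luc *TRA2B* KO, and the YAP target medians from 0.33 to 0.45 and from −0.15 to 0.02. TPM are as deposited, without the scaling used for the fold changes.

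Promoters of the called interferon-stimulated genes are shown because they hold letters of the interferon-stimulated response element, through which interferon induces these genes. The 250 bases before the RefSeq start (GRCh38.p14) were searched on both strands for GAAANNGAAA, whose reverse complement is TTTCNNTTTC. Of 23 called members with a promoter entry, 12 (52.2%) held it, against 3.07% of all 27305 RefSeq promoters of that length and 2.38% of 10234 tested protein-coding genes. So did 5 of the 7 list members not called (71.4%). The share was 6.52% among 230 other protein-coding DEGs higher in *TRA2B* KO and 3.7% among 216 lower. A match is a description of these letters only. The 3 members with a match and the largest direct differences follow, 5′ to 3′ on the strand of the gene, all plus, with the matches in capitals: *IFI44L* at chr1:78620198-78620447, *IFI44* at chr1:78649539-78649788 and *IFI27* at chr14:94110486-94110735.
IFI44L: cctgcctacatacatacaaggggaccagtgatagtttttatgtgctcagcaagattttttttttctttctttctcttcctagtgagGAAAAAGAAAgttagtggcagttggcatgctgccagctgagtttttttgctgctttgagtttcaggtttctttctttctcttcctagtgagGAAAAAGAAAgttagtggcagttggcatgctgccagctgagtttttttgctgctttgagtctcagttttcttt
IFI44: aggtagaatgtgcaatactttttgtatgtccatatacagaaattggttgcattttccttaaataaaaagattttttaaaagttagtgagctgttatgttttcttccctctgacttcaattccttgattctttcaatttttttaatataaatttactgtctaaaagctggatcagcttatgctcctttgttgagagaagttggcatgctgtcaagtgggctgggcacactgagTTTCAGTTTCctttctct
IFI27: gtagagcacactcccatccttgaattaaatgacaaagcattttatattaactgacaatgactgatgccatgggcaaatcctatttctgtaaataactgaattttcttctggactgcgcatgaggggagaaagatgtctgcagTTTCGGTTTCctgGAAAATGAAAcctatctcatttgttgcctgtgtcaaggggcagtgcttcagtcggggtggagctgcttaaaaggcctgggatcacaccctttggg

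Targets of YAP, the coactivator of the Hippo pathway that pairs with TEAD factors, took the other direction. Of 18 measured, 4 were DEGs lower in *TRA2B* KO and 0 higher, 13 were lower and 2 higher at an adjusted p under 0.05, and the median direct difference was −0.70, beside 2.27% of all tested genes that were DEGs lower and 26.1% lower and 21% higher by adjusted p. *CTGF*, listed under its older symbol, was at 173, 170 and 274 TPM in Control KO, 463, 428 and 693 TPM in *TRA2A* KO and 160, 203 and 158 TPM in *TRA2B* KO. It rose by 1.40 in *TRA2A* KO (adjusted p = 0.0014), and the *TRA2B* KO libraries overlapped with control (direct difference −1.73 ± 0.22, adjusted p = 4.58e-05). *F3*, tissue factor, was at 348, 364 and 376 TPM in Control KO, 726, 644 and 808 TPM in *TRA2A* KO and 195, 215 and 184 TPM in *TRA2B* KO, and *ANKRD1* was at 3.78, 3.94 and 4.58 TPM, 6.45, 6.15 and 8.11 TPM and 1.46, 2.13 and 1.74 TPM in the same order. Neither had overlapping groups, and their direct differences were −2.02 ± 0.13 (adjusted p = 6.71e-07) and −2.05 ± 0.18 (adjusted p = 4.21e-06). *NT5E*, the ecto-enzyme that makes adenosine, had −1.72 ± 0.13 (adjusted p = 1.86e-06).

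Genes of the ATF4 and endoplasmic reticulum stress responses were lower in *TRA2B* KO than in *TRA2A* KO as well, with 6 DEGs lower and 0 higher among 31, and 25 lower and 1 higher at an adjusted p under 0.05 (median −0.62), against the same 2.27%, 26.1% and 21% of all genes. With TPM as deposited 3 were DEGs. Most of the distance came from *TRA2A* KO, in which the list's median difference from control was 0.35, against −0.20 in *TRA2B* KO. *SLC7A5*, the light chain of a large neutral amino acid transporter, was at 33.3, 36.1 and 35.2 TPM in Control KO, 83.8, 83.6 and 102 TPM in *TRA2A* KO and 33.8, 34.4 and 32.7 TPM in *TRA2B* KO. Only its *TRA2A* KO libraries left the control range upward (direct difference −1.55 ± 0.12, adjusted p = 1.99e-06). *STC2*, a secreted glycoprotein induced by ATF4, was at 49, 47.5 and 38.9 TPM in *TRA2A* KO and 16.3, 16 and 16.3 TPM in *TRA2B* KO (−1.61 ± 0.16, adjusted p = 7.58e-06). *SLC7A11*, the cystine transporter, had a difference of −1.11 ± 0.16. *SDF2L1*, an endoplasmic reticulum chaperone component, was at 77.9, 86.2 and 82.3 TPM in Control KO, 90, 99.5 and 95.4 TPM in *TRA2A* KO and 41, 48.1 and 52.4 TPM in *TRA2B* KO, so that most of its difference lay in *TRA2B* KO (fell by 0.91, adjusted p = 0.00024).

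Actin and contractile genes were lower in *TRA2B* KO where they were called, and all 5 DEGs were *TRA2B*-side. Of 30 measured, 5 were DEGs lower and 0 higher in *TRA2B* KO than in *TRA2A* KO, 20 were lower and 2 higher at an adjusted p under 0.05 (26.1% and 21% of all genes were, and 2.27% were DEGs lower), and the median difference was −0.42. The DEG count rested on values near the fold threshold, with 2 for TPM as deposited, 1 after quantile normalization, 3 with a minimum of 5 TPM and 2 without *TRA2A* KO replicate 3. Against control the medians were 0.07 in *TRA2A* KO and −0.39 in *TRA2B* KO. *TAGLN2*, an actin-bundling calponin family protein, was at 744, 684 and 803 TPM in Control KO, 814, 836 and 955 TPM in *TRA2A* KO and 382, 424 and 406 TPM in *TRA2B* KO (−1.25 ± 0.11, adjusted p = 2.96e-06). *MYL9*, a regulatory myosin light chain, was at 3.52, 3.02 and 4.75 TPM in Control KO, 4.32, 3.16 and 5.58 TPM in *TRA2A* KO and 1.35, 1.62 and 1.72 TPM in *TRA2B* KO. For both, *TRA2B* KO lay below the other groups, and for *MYL9* the other groups overlapped. *CALD1* and *TPM1*, which bind actin filaments, had direct differences of −1.15 ± 0.15 and −1.05 ± 0.14.

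**Figure D4:**
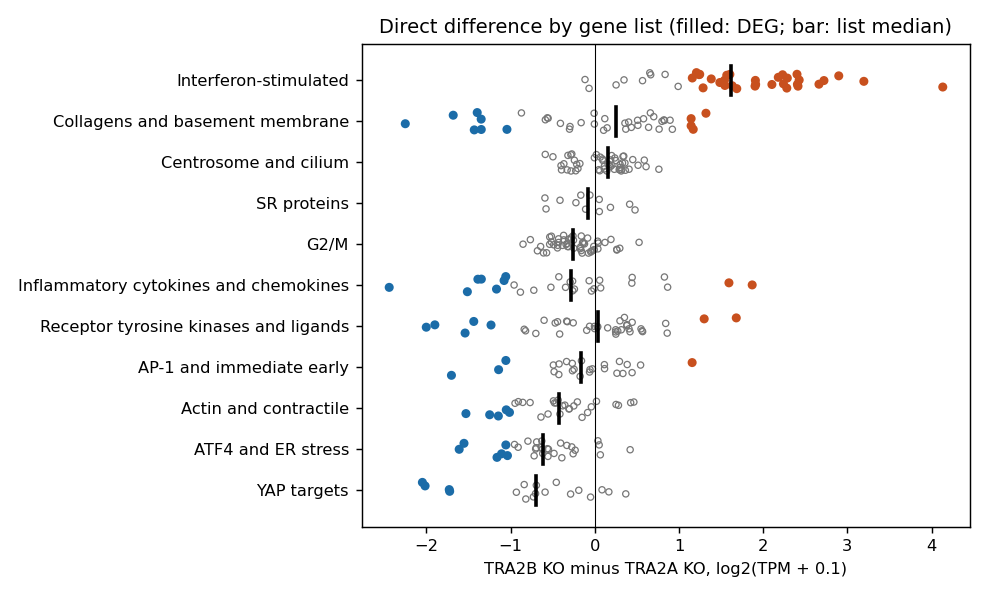
Direct difference (*TRA2B* KO minus *TRA2A* KO, log2(TPM + 0.1)) of every tested gene of 11 lists, with DEGs filled (orange higher, blue lower), other genes open and black bars at list medians. Interferon-stimulated genes lie to the right (median 1.62, 31 DEGs of 40), YAP targets to the left (median −0.70, 4 DEGs of 18), and matrix genes on both sides.

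Matrix genes held DEGs of both directions. Of 40 measured collagen and basement membrane genes, 4 were DEGs higher and 7 lower in *TRA2B* KO, with 19 higher and 12 lower at an adjusted p under 0.05. Over all tested genes 4.07% were DEGs higher and 2.27% lower, and 21% were higher and 26.1% lower by adjusted p, so the 12 that were lower are near the share of all genes. *COL8A1*, a short-chain collagen, was at 23.5, 23.5 and 19 TPM in Control KO, 42.5, 36.6 and 28.4 TPM in *TRA2A* KO and 9.92, 13.9 and 12.9 TPM in *TRA2B* KO (−1.68 ± 0.15, adjusted p = 3.74e-06). *COL14A1* was *TRA2B*-side at 14, 14.8 and 13.6 TPM, 17.6, 17.1 and 16.5 TPM and 6.79, 7.59 and 6.47 TPM in the same order, and *NID2*, a basement membrane linker, was *TRA2A*-side at 3.47, 2.88 and 3.18 TPM, 6.98, 6.98 and 10.1 TPM and 2.99, 3.47 and 3.33 TPM. Fibronectin (*FN1*), named after its values were seen, was the most abundant of the genes that were lower, at 1542, 1560 and 1417 TPM in Control KO, 2768, 2735 and 2591 TPM in *TRA2A* KO and 1180, 1255 and 1087 TPM in *TRA2B* KO (−1.35 ± 0.12, adjusted p = 5.16e-06). The 4 DEGs that were higher, also named after the fact, were *COL1A2*, *COL8A2*, the laminin chain *LAMA5* and perlecan (*HSPG2*). *HSPG2* was at 31.1, 34.5 and 32.7 TPM in Control KO, 18.8, 21.1 and 18.1 TPM in *TRA2A* KO and 46, 46.6 and 49.4 TPM in *TRA2B* KO, without overlap (1.14 ± 0.12, adjusted p = 1.13e-05). Of the matrix enzymes and inhibitors, *LOXL3* (1.495 ± 0.23) and *ADAMTS10* (1.20 ± 0.13) were higher and *TIMP3* (−1.31 ± 0.14) and *LOX* (−1.12 ± 0.17) lower, and of the integrins and cadherins *ITGA7* was higher (1.15 ± 0.10).

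Receptor tyrosine kinases, their ligands and early response genes also held DEGs of both directions. *EREG*, a ligand of the EGF receptor, was at 15.2, 17 and 15.2 TPM in Control KO, 37.4, 31.3 and 37.1 TPM in *TRA2A* KO and 9.94, 10.4 and 8.66 TPM in *TRA2B* KO, without overlap (−2.001 ± 0.16, adjusted p = 2.3e-06). *TGFA*, another ligand of that receptor, and *FGF1* had −1.54 ± 0.14 and −1.90 ± 0.33. The receptor *MERTK* was higher, at 5.33, 5.99 and 5.53 TPM in Control KO, 3.94, 4.17 and 3.24 TPM in *TRA2A* KO and 13.2, 13.1 and 14.5 TPM in *TRA2B* KO (1.68 ± 0.16, adjusted p = 7.55e-06). In all, 2 of 41 receptor kinase and ligand genes were DEGs higher and 5 lower (4.07% and 2.27% of all genes were). By adjusted p 12 were higher and 14 lower (21% and 26.1% of all genes were), with a median of 0.04. Of 25 AP-1 and immediate early genes, *FOSL1* (−1.70 ± 0.14), *IER3* (−1.14 ± 0.09) and *ATF3* (−1.06 ± 0.16) were DEGs lower and *EGR3* (1.16 ± 0.26) was a DEG higher. By adjusted p 5 of these 25 were higher and 10 lower, beside the same 21% and 26.1%, so the 5 that were higher are near the share of all genes. Of 20 ERK feedback genes 1, *DUSP1*, was a DEG, and it was lower (−1.52 ± 0.15), where 2.27% of all tested genes were. By adjusted p 4 of the 20 were higher and 12 lower (21% and 26.1% of all genes were), with a median of −0.25. The counts were 6 and 8 with TPM as deposited and 6 and 11 after quantile normalization.

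Among 28 inflammatory genes 2 were DEGs higher and 7 lower, where 4.07% and 2.27% of all tested genes were. At an adjusted p under 0.05, 6 were higher and 11 lower (21% and 26.1% of all genes were). *VCAM1*, an adhesion molecule, was at 1.84, 1.63 and 1.35 TPM in Control KO, 0.573, 0.681 and 0.86 TPM in *TRA2A* KO and 2.82, 2.17 and 2.66 TPM in *TRA2B* KO (1.59 ± 0.30, adjusted p = 0.000861), and the chemokine *CCL5* was higher too (1.87 ± 0.47, adjusted p = 0.00525), at under 2 TPM in all 9 libraries. *CCL7* was lower (−1.51 ± 0.36, adjusted p = 0.00399). *IL24* was called lower (−2.44 ± 0.82, adjusted p = 0.0268), but its *TRA2A* KO libraries were at 3.73, 0.554 and 0.419 TPM, and without replicate 1 the difference was −1.56 (adjusted p = 0.131). *CCL2*, the most abundant of the list's DEGs and named after its values were seen, was at 2223, 2098 and 2419 TPM in Control KO, 1907, 1798 and 2258 TPM in *TRA2A* KO and 965, 1022 and 940 TPM in *TRA2B* KO (−1.17 ± 0.16, adjusted p = 9.62e-05).

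Developmental signaling and hypoxia genes held DEGs of both directions. *DKK1*, a secreted Wnt inhibitor, was at 120, 102 and 108 TPM in Control KO, 278, 251 and 286 TPM in *TRA2A* KO and 89.4, 96.2 and 75.7 TPM in *TRA2B* KO (−1.79 ± 0.13, adjusted p = 1.27e-06), and *ID1*, a BMP target, had −1.38 ± 0.16. *NOTCH3* was higher, at 14.9, 15.2 and 16.8 TPM, 11.5, 13.2 and 10.7 TPM and 31.7, 32.2 and 33.9 TPM in the same order (1.32 ± 0.13, adjusted p = 6.94e-06). Of 35 hypoxia and glycolysis genes, *CA9*, a carbonic anhydrase induced by HIF1, was at 9.28, 6.37 and 4.62 TPM in Control KO, 0.537, 1.3 and 0.63 TPM in *TRA2A* KO and 3.26, 3.7 and 6.43 TPM in *TRA2B* KO (2.20 ± 0.38, adjusted p = 0.000445). *VEGFA* was higher too (1.12 ± 0.09) and *ADM* lower (−1.58 ± 0.10). By adjusted p, 8 of the 35 were higher and 19 lower (21% and 26.1% of all tested genes were), with a median of −0.35, so most of the list ran opposite to *CA9* and *VEGFA*. *CA9* was *TRA2A*-side, with *TRA2B* KO overlapping control, while *VEGFA*, at 150 to 194 TPM in Control KO, 113 to 137 TPM in *TRA2A* KO and 291 to 318 TPM in *TRA2B* KO, lay mostly on the *TRA2B* side.

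Genes of splicing held 1 DEG among the SR proteins and other splicing regulators. Of the 12 SR proteins, 0 were DEGs by limma (8 had an unadjusted p under 0.05, counting 3 that were higher and 4 lower at an adjusted p under 0.05), and the list's median was −0.08, or 0.06 with TPM as deposited and after quantile normalization. Over all tested genes, 10272 of 19303 had an unadjusted p under 0.05. *SRSF11* was at 409, 446 and 412 TPM in Control KO, 388, 340 and 340 TPM in *TRA2A* KO and 547, 558 and 539 TPM in *TRA2B* KO (0.48 ± 0.06, adjusted p = 4e-05), and *SRSF8* had −0.59 ± 0.07. Of 43 other splicing regulators, 9 were higher and 26 lower by adjusted p, where 21% and 26.1% of all tested genes were. These counts became 12 and 15 with TPM as deposited and 11 and 16 after quantile normalization. *KHDRBS3* was the 1 DEG, at 59.2, 56.8 and 55.9 TPM, 78.9, 78 and 75.8 TPM and 36.5, 37.6 and 38.2 TPM in the same order (−1.20 ± 0.07, adjusted p = 2.74e-07). The exon junction genes *RBM8A* and *MAGOH*, which also serve nonsense-mediated decay, had −0.82 ± 0.10 and −0.81 ± 0.10, on the *TRA2B* side.

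The genes for which the study lists RT-PCR primers belong to the checkpoint and the centrosome. *OFD1*, a centriolar satellite protein, was at 32.6, 32.3 and 30 TPM in Control KO, 23.1, 21.8 and 18.7 TPM in *TRA2A* KO and 41.1, 38.9 and 39 TPM in *TRA2B* KO. It fell by 0.54 in *TRA2A* KO (adjusted p = 0.00024) and rose by 0.22 in *TRA2B* KO (adjusted p = 0.013), without overlap. *CEP192* and *CNTRL*, centrosomal scaffold proteins, had direct differences of 0.45 ± 0.08 and 0.36 ± 0.09. *CHEK1*, the checkpoint kinase, was at 40.1, 49.1 and 46.6 TPM, 44.8, 41.9 and 48.2 TPM and 35.8, 33.1 and 30.9 TPM in the same order, below both other groups in *TRA2B* KO (−0.58 ± 0.09, adjusted p = 0.000242). Of 52 G2/M genes 5 were higher and 31 lower at an adjusted p under 0.05, where 21% and 26.1% of all tested genes were. These G2/M counts became 10 and 21 with TPM as deposited and 12 and 19 after quantile normalization.

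Shared genes were defined by a narrow direct difference rather than by a failed test. They were DEGs of the mean of both KO groups against Control KO, with all 6 KO libraries on 1 side of all 3 control libraries and a 95% confidence interval of the direct difference within 1 of 0 on the log2 scale. The mean of both KO groups against control gave 233 DEGs (1.21%), 176 higher and 57 lower, and 33 lower without Control KO replicate 1. Of these, 50 were shared (0.259%), 37 higher and 13 lower. The count of shared genes cannot be set against the 1224 direct DEGs, which did not have to meet the added limits on libraries and interval.

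*SLC13A3*, a transporter of dicarboxylates, had the largest shared rise, at 0.66, 0.995 and 0.688 TPM in Control KO, 5.92, 5.4 and 4.72 TPM in *TRA2A* KO and 8.3, 7.18 and 7.61 TPM in *TRA2B* KO. It rose by 2.87 on average over both KO groups (adjusted p = 6.1e-06), with an interval of the direct difference from −0.06 to 0.82. *GUCA1B*, a calcium-binding activator of guanylate cyclase, was at 3.12, 2.5 and 2.82 TPM, 7.66, 7.42 and 6.97 TPM and 8.72, 8.27 and 9.17 TPM in the same order, with an interval from −0.13 to 0.33. *SELPLG*, the ligand of P-selectin, rose in both (mean 1.27) but more in *TRA2B* KO (interval 0.23 to 0.94). *LSMEM1*, *CNKSR1* and *CLPSL2* had mean rises of 1.08, 1.03 and 1.04.

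The chemokine *CXCL14* was the most abundant shared gene, at 2039, 1938 and 1506 TPM in Control KO, 841, 885 and 881 TPM in *TRA2A* KO and 750, 767 and 808 TPM in *TRA2B* KO. It fell by 1.18 on average (adjusted p = 0.00028), with an interval of the direct difference from −0.65 to 0.03. *SLPI*, a secreted protease inhibitor, was at 42.4, 49 and 21.3 TPM, 15.5, 15.6 and 13.8 TPM and 14.2, 11.1 and 13.7 TPM in the same order and fell by 1.38. *KRT19* fell by 1.09, *CYSLTR1*, a leukotriene receptor, by 1.07 and *CD69* by 1.06. These 3 also differed between the KO groups within the limit set for shared genes, by −0.53 for *KRT19* (adjusted p = 0.00183), 0.55 for *CYSLTR1* (adjusted p = 0.0463) and 0.59 for *CD69* (adjusted p = 0.00281). In *CXCL14*, *SLPI* and these genes all KO libraries lay below all control libraries.

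The TRA2B-OE libraries, which are none of the 6 compared, gave a further view of the *TRA2A* side. *TRA2B* ran from 678 to 839.6 TPM in TRA2B-OE Control KO and from 964.3 to 988.8 TPM in TRA2B-OE *TRA2A* KO, and *TRA2A* from 88.2 to 93.7 TPM and from 42.4 to 51.2 TPM. *TRA2A* KO against Control KO gave 45 DEGs in that background (0.233%), against 362 in Luc cells. The sign of the *TRA2A* KO difference was the same in both backgrounds for 256 of 296 *TRA2A*-side genes (86.5%), 371 of 432 opposite genes (85.9%) and 371 of 496 *TRA2B*-side genes (74.8%), beside 68.5% of all tested genes. The median absolute difference with TRA2B-OE was 0.51 for *TRA2A*-side and 0.29 for *TRA2B*-side genes, beside 1.03 and 0.27 in Luc cells, where the former were chosen for a large difference. A difference of the 2 *TRA2A* KO effects passed as a DEG in 2 genes (0.0104%), *RP11-477H21.2* and another transcript with a clone name, and at an adjusted p under 0.05 in 4 (0.0207%), the others being *RNF43* and *LINC01133*.

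*RNF43*, a ubiquitin ligase that removes Wnt receptors and is named here after its values were seen, was at 19.1, 20.7 and 18.1 TPM in Luc Control KO, 8.34, 8.8 and 9.27 TPM in *TRA2A* KO and 17.8, 20.5 and 17.5 TPM in *TRA2B* KO. With TRA2B-OE it was at 26.9, 26.6 and 27.5 TPM in Control KO and 23.9, 22.2 and 22.6 TPM in *TRA2A* KO. Luc *TRA2A* KO stood below every other group, and *TRA2B* KO overlapped with its control. *LINC01133* fell in both Luc KO groups, and ran from 81.2 to 83 TPM in Luc Control KO, 47 to 52.5 TPM in *TRA2A* KO and 67.5 to 71.3 TPM in *TRA2B* KO, against 81.4 to 86.4 TPM and 70 to 82.1 TPM with TRA2B-OE. In the interferon-stimulated list, 19 of 40 genes had all TRA2B-OE *TRA2A* KO libraries below their controls (14.4% of tested genes did) and 0 had them all above. By limma 0 were DEGs, 10 had an unadjusted p under 0.05, all lower (3465 of all 19303 genes had one, in either direction), and 1, *PARP14*, had an adjusted p under 0.05. For the effectors named above, the TRA2B-OE Control KO mean was already under that of Luc Control KO. It was 0.61 against 4.43 TPM for *IFI44L*, 5.47 against 20.5 TPM for *IFI44*, 133 against 359 TPM for *IFI27*, 4.98 against 9.16 TPM for *OAS2* and 33.7 against 46.6 TPM for *XAF1*. The backgrounds thus did not start from the same level in these genes.

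LN229 is a second glioma line with the same 5 groups, and its own table was fitted by itself, so values are set side by side without a test. There *TRA2A* ran from 65 to 74.2 TPM in *TRA2A* KO and 105 to 111 TPM in Control KO, and *TRA2B* from 143 to 150 TPM in *TRA2B* KO and 202 to 234 TPM in Control KO, so that both knockouts lowered their RNA less than in LN319. In *TRA2B* KO of LN229, *TRA2A* was above control, at 167 to 171 TPM (log2 fold change 0.59), whereas in LN319 it was below. The direct comparison gave 1371 DEGs of 18490 genes (7.41%), with 4.33% higher and 3.08% lower. Of the 854 LN319 DEGs tested there, 204 were DEGs in both (23.9% of these and 21.8% of the LN229 DEGs tested in LN319), 197 of them in the same direction. Signs were the same for 82.2% of these 854 and for 65% of all 16426 genes tested in both. In LN229, 26 of 40 interferon-stimulated genes were DEGs higher and 0 lower (median 1.32), and 9 of 18 YAP targets were DEGs lower and 0 higher (median −0.84), whereas the ATF4 and endoplasmic reticulum stress median was −0.01, against −0.62 in LN319.

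Among named genes, *CPA4* had a direct difference of −4.12 ± 0.53 in LN229 (7.9 to 9.7 TPM in *TRA2B* KO and 121 to 167 TPM in *TRA2A* KO), *THBS1* of −2.94 ± 0.475, *C5orf46* of −2.41 ± 0.35 and *IFI44L* of 2.70 ± 0.67. *PTGS1* (−0.51 ± 0.35, adjusted p = 0.284) and *CRYAB* (−0.02 ± 0.175, adjusted p = 0.947) did not pass there. *ALDH1A1*, *KRT17*, *CDH6*, *MLC1* and *P2RY6* were too low in LN229 to be tested. The lung cancer lines A549 and NCI-H23 differed in method and time, with CRISPRi guides, collection 5 days after transduction and no overexpression construct in their labels. There *TRA2B* knockdown against *TRA2A* knockdown gave 66 DEGs (0.402%, with 0.384% higher and 0.0183% lower) and 65 DEGs (0.399%, with 0.282% higher and 0.117% lower). *IFI44L*, *XAF1* and *OAS2* were too low in both lung lines to be tested. By limma, 0 interferon-stimulated genes were DEGs or had an adjusted p under 0.05 in either line (median differences 0.27 and 0.18, against 0.012 and 0.006 over all genes). At an unadjusted p under 0.05 10 were higher and 1 lower of 32 in A549 and 5 were higher and 1 lower of 22 in NCI-H23. Over all genes 1780 of 16405 in A549 and 2841 of 16293 in NCI-H23 had such a p, in either direction.

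**Figure D5:**
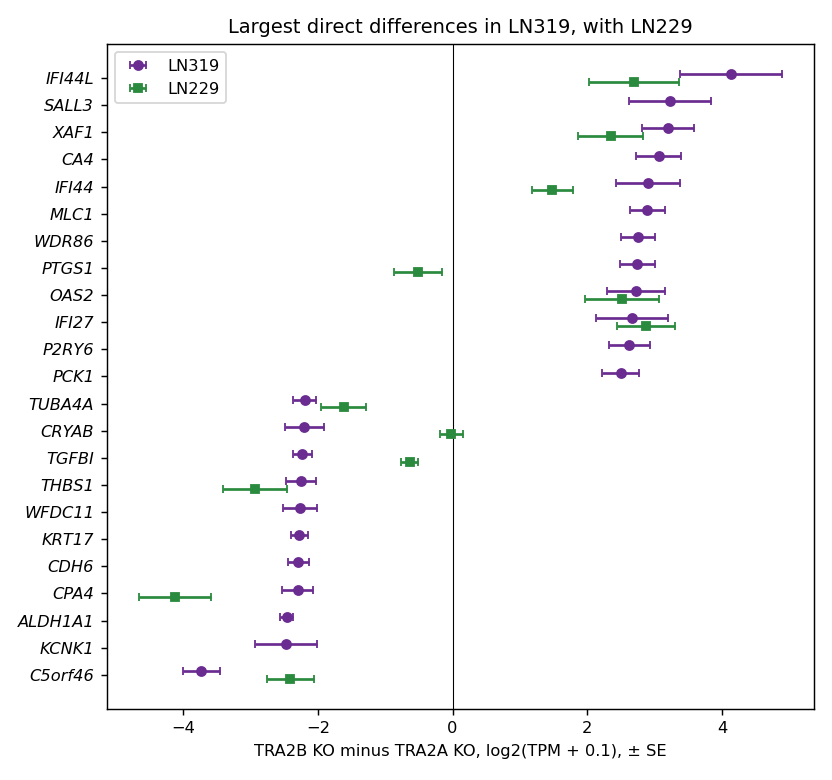
Direct difference (*TRA2B* KO minus *TRA2A* KO, log2(TPM + 0.1)) with its SE for 23 genes in LN319 (circles) and, where tested, in LN229 (squares). They are the protein-coding DEGs of largest difference per direction in LN319 with a mean of at least 5 TPM and no overlap between groups, the readthrough left out. *CPA4* and *THBS1* lie at −4.12 and −2.94 in LN229 and at −2.30 and −2.25 in LN319, while *PTGS1* and *CRYAB* lie at −0.51 and −0.02 in LN229.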

How the data were processed

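The authors quantified paired-end, poly(A)-selected, directional libraries with kallisto 0.48.0 on Gencode v34 (hg38/GRCh38), and deposited gene-level TPM, neither scaled between libraries nor on a log scale. The submitters' processing notes also list STAR 2.7.3. TPM divides by transcript length and by the library total, so it keeps no depth and lets 1 abundant class shift all other genes. The authors' own test needs counts and could not be repeated.

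Here each library's TPM were scaled by a trimmed mean of log ratios without weights (30% trimmed by ratio, 5% by abundance), taken as log2(TPM + 0.1), and fitted in R 4.3.3 with limma 3.58.1 (moderated, with a mean-variance trend) over all 15 LN319 libraries and 5 groups. Tests were two-sided with Benjamini-Hochberg adjustment over all 19303 genes, and every adjusted p is from this limma fit. Levels, overlaps between libraries and medians by library are from TPM as deposited, without this scaling. Comparisons with Control KO share its 3 libraries, so no overlap between them is given. The method was tested on simulated data in which only a small share of genes changed, which does not cover differences as widespread as those found here.

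The members and the 33 gene lists were chosen with earlier results of these data known. Named genes are the targeted genes and RT-PCR targets, the 12 protein-coding DEGs per direction of largest fold change (mean of at least 5 TPM, no overlap between groups), up to 8 shared genes per direction, and up to 4 DEGs per list (without DEGs, up to 2 of smallest p). Another 28 names that look like dates were not eligible. Promoters came from RefSeq, and Gencode v44 matched 15098 names. Figures used Python 3.11.15 and matplotlib 3.10.9. The closing section gives the alternatives tried.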

Additional observations from a re-analysis of the deposited data

Results flagged for a closer look

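Among the named genes, 6 that passed the test in LN319 moved in opposite directions in the glioma lines, with every *TRA2B* KO library on one side of every *TRA2A* KO library in LN319 and on the other side in LN229. *SRSF8* (0.48 in LN229), *SDF2L1* (0.28 in LN229), *IER3* (0.26 in LN229, adjusted p = 0.152 by limma) and *DUSP1* (0.36 in LN229) were lower in *TRA2B* KO in LN319 and higher in LN229, on the log2 scale. *VEGFA* (−0.52 in LN229) and *CDCA7*, of the S phase list (−0.26 in LN229, adjusted p = 0.137 by limma), were higher in LN319 and lower in LN229. The difference between the lines was not tested, because each line has its own separately scaled table.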

How the results depend on the processing

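Counts of DEGs depended on the pseudocount, the filter and the fold threshold, which change how many low genes can pass. With a pseudocount of 1 the direct comparison gave 712 DEGs (431 higher, 281 lower), the mean of both KO groups gave 91 (68 and 23), shared genes were 33, and the classes held 189 *TRA2A*-side, 296 *TRA2B*-side and 227 opposite genes. With a pseudocount of 0.5 the mean of both KO groups gave 148 (115 and 33). With a minimum of 5 TPM the same counts were 652 (440 and 212), 78 (52 and 26), 24, 157, 279 and 216. With no filter 95 genes were lower in both KO groups and 76 were shared. After quantile normalization 106 were higher in both KO groups. The cause was not tested. Dropping the fold threshold gave 9102 (4062 and 5040), 4055 (1698 and 2357) and 1465 shared, with 2236 *TRA2A*-side and 6434 *TRA2B*-side genes. TPM as deposited moved the median direct difference of all genes from 0.019 to 0.162.

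With 1 library left out, the direct comparison gave 1019 to 1331 DEGs (655 to 871 higher, 364 to 463 lower), the mean of both KO groups 196 to 270 (146 to 217 higher, 33 to 62 lower, the lowest without Control KO replicate 1), shared genes 37 to 73, and the classes 243 to 345 *TRA2A*-side, 399 to 532 *TRA2B*-side and 373 to 494 opposite. Without *TRA2A* KO replicate 3, which gave the lowest direct count, 902 of the 1224 DEGs remained.

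Counts of interferon-stimulated DEGs, and of YAP, ATF4 and actin genes lower at an adjusted p under 0.05, stayed within 1.5 times under every alternative run. For DEGs lower, recomputed after seeing the data, the 6 ATF4 genes became 3 with TPM as deposited, and the 5 actin genes became 3 with a minimum of 5 TPM, 2 with TPM as deposited and 1 after quantile normalization. Without the fold threshold they were 13 YAP, 25 ATF4 and 20 actin genes. With 1 library left out they were 4 YAP, 5 to 7 ATF4 and 2 to 6 actin genes, the last lowest without *TRA2A* KO replicate 3. Of 1570 recomputed differences of 113 named genes, 1536 kept direction and side of the threshold, 24 lost and 4 gained significance, and 6 changed sign, all in shared genes: *CLPSL2* (0.002 with a minimum of 5 TPM, 0.055 as deposited, 0.005 without *TRA2B* KO replicate 2), *GUCA1B* (−0.016) and *CXCL14* (0.256) after quantile normalization, and *LSMEM1* (−0.025 without *TRA2B* KO replicate 1). With 1 library left out *CLPSL2* ran from −0.211 to 0.005 and *LSMEM1* from −0.025 to 0.187. The losses were in *IL24*, *CYSLTR1*, *GFAP* and *MT2A*.

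Replicate numbers did not pair the libraries (correlations of deviations 0.038, 0.025 and 0.023), and with the replicate number as a block the direct comparison gave 1225 DEGs. The planned removal of length and GC trends was not run, since 15098 of 19303 names had a match, too few for that check.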
